A study of Mus musculus with 3 samples.

Results

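Genes that govern the traffic of immune cells into the gut wall were described, namely the 9 of 31053 genes in the count matrices with the symbols Ccl25, Ccl28, Ccl20, Ccr9, Ccr6, Ccr7, Itgae, Itgb7 and Cdh1. They were chosen by symbol and not by their measured values. The chemokines and Cdh1 were followed in epithelial classes, and the receptors and integrin chains in immune classes, along the duodenum, jejunum and ileum. Cells came from 12-week-old male C57BL/6N mice of the wild-type (WT) genotype with no further allele or agent given, and each segment was 1 library of cells pooled from 3 mice. Epithelial cells (IECs) and the immune cells lying between them were detached with EDTA and DTT and sorted as propidium iodide-negative live cells. Each cell's mRNA was then counted as unique molecular identifiers (UMIs, 1 per captured transcript) by 10x 3′ sequencing. A pool of 3 mice in 1 library per segment gives no spread between animals, so differences between segments were not tested, and the intervals given with levels (exact Poisson) and shares of cells (exact binomial) cover counting error only, at 95%.

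Of 27235 barcodes, 16686 passed the study's filters, with 4255, 4360 and 8071 cells from duodenum, jejunum and ileum, and a median of 12424, 11737 and 5536 UMIs per cell. The median share of mitochondrial UMIs was 27.1% in duodenum, 27.2% in jejunum and 11.1% in ileum, so the ileal library stood apart in both depth and mitochondrial share. Libraries shared 4 to 12 of the kept barcodes in each pair. Cells were clustered without the 9 genes among the variable genes and named from marker lists, which gave 10248 enterocytes, 1142 early enterocytes, 202 intestinal stem and proliferating cells (ISCs), 750 goblet cells, 300 tuft cells, 171 enteroendocrine cells (EECs), 25 Paneth cells, 1234 T cells, 613 B cells, 87 IgA B cells, 58 macrophages or monocytes and 51 dendritic cells. The labelled cell type, intestinal epithelial cells, thus held for most but not all cells, and 1805 cells stayed unnamed. RNA of enterocytes was found in all classes: the summed level of 14 enterocyte markers reached 8.5% to 27.4% of the enterocyte level in T cells, 8.0% to 16.0% in B cells and 4.23% to 12.6% in IgA B cells, and its part in the values below was not tested.

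Chemokines of this group are made by the lining epithelium and read by receptors on lymphocytes. CCL25 of the small intestine is bound by CCR9, CCL28 of mucosal surfaces by CCR10 and CCR3, and CCL20 of the epithelium over lymphoid follicles by CCR6, whereas CCR7 responds to chemokines of lymph nodes and lymphatic vessels and leads cells towards them. The integrin chain encoded by Itgb7 pairs with the α4 chain (Itga4) to bind the vessel address molecule MAdCAM-1, or with αE (Itgae, CD103) to bind E-cadherin (Cdh1), the adhesion protein of epithelial junctions that retains lymphocytes within the epithelium. On GRCm38 (GENCODE M21), all are protein-coding genes. The chemokine genes lie at chr8:4325210-4360020 on the plus strand (Ccl25), chr13:119623819-119654359 plus (Ccl28) and chr1:83116766-83119167 plus (Ccl20), and the chemokine receptor genes at chr9:123678439-123784330 plus (Ccr9), chr17:8236043-8257141 plus (Ccr6) and chr11:99144196-99155077 minus (Ccr7). Itgae lies at chr11:73090583-73147446 plus, Itgb7 at chr15:102215995-102231944 minus and Cdh1 at chr8:106603351-106670246 plus.

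Promoters of 300 bases from RefSeq (GRCm38.p6) were found for 6 of the 9 genes. They were searched on both strands for 3 short motifs, the caudal-type homeobox (CDX) motif TTTATG, the NF-κB motif (GGG and TTTCC with any 2 bases between them) and the TATA motif TATAAA. Ccl25, whose RNA peaked in early enterocytes, and Ccl20, whose RNA lay in few cells, are shown because theirs were the promoters that held a match. Each window of 30 bases is written along the plus strand with the matched letters in capitals.
Ccl25, TTTATG on the minus strand, chr8:4349384-4349413: gaggcctggctgCATAAAgtgcctcaaggt
Ccl25, TATAAA on the plus strand, chr8:4349560-4349589: tggggctctgacTATAAAgaatgaagccag
Ccl20, NF-κB motif on the minus strand, chr1:83116676-83116705: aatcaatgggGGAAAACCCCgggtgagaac
In Ccl25 the matches began 192 and 16 bases before the start site of the promoter used, and in Ccl20 80 bases before it. The Ccl25 promoter (chr8:4349338-4349637) lies within the gene span given above. Its start site is thus not the start of that span. The motifs did not overlap, and 11.9%, 13.6% and 1.63% of all 32851 promoters held the CDX, TATA and NF-κB motifs. A match describes letters, not a site that is used.

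Levels are given as UMIs per 10000 UMIs of the same cells. For comparisons between classes, UMIs were summed per library and class and fitted with edgeR (quasi-likelihood F-test) with the library as a block. TMM scaling and Benjamini-Hochberg adjustment over all genes tested were used, and a difference was called at an adjusted p under 0.05. It is given on the log2 scale with its standard error, over 3 libraries per class unless stated. With TMM the median difference over all genes lay between -0.14 and 0.09 in each comparison, so a member's difference is relative to the typical gene. Ccl20 did not pass the filter on low counts between classes and the other 8 genes did. The receptors and integrin chains passed it through the immune classes in which they are abundant. Their differences from enterocytes, those of T cells included, are therefore a description.

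Ccl25 RNA was found across the absorptive cells and peaked in early enterocytes, the young absorptive cells of the villus base. Its level there was 8.90 in duodenum, 10.8 in jejunum and 10.8 in ileum, against 2.06, 1.83 and 2.55 in enterocytes. Every early enterocyte sum thus lay above every enterocyte sum, and the difference was 1.92 ± 0.27 (adjusted p = 2.4e-06). Early enterocytes held 47.3% of all Ccl25 UMIs with 14.9% of the UMIs of all genes, and 99.2% of them had at least 1 Ccl25 UMI, against 59.6% of enterocytes and 19.3% of T cells, which should lack it. Early enterocytes were also deeper (median 23185 UMIs against 10056.5 in enterocytes and 4260 in T cells), and with every cell thinned to 800 UMIs the shares were 49.3%, 12.4% and 4.13%.

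In stem and proliferating cells Ccl25 reached 4.78, 3.47 and 3.08, above the enterocyte level in each library. Scaled by TMM, however, the difference was -0.01 ± 0.26 (adjusted p = 0.99), while scaled by library totals it was 0.81 and called, so that its direction depends on the scaling. The secretory classes held little of it. Goblet cells, which make mucus, had 0.395, 0.320 and 0.442, EECs, which release hormones, 0.519, 0.477 and 0.370, and tuft cells, which sense luminal signals, 0.676, 0.460 and 0.797. No sum of these 3 classes reached any enterocyte sum, and the differences were -2.53 ± 0.28 in goblet cells (adjusted p = 4.67e-08), -3.11 ± 0.31 in EECs (adjusted p = 5.47e-09) and -2.35 ± 0.29 in tuft cells (adjusted p = 1.66e-07). The 25 Paneth cells had 0.406 over all libraries. For comparison, T cells, which should lack it, had 1.22, 0.511 and 0.688 and B cells 0.546, 0.519 and 0.581, beside the enterocyte RNA in those classes. The goblet cells lay under every T and B cell sum, and the tuft cells of duodenum and ileum lay within their range.

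**Figure D1:**
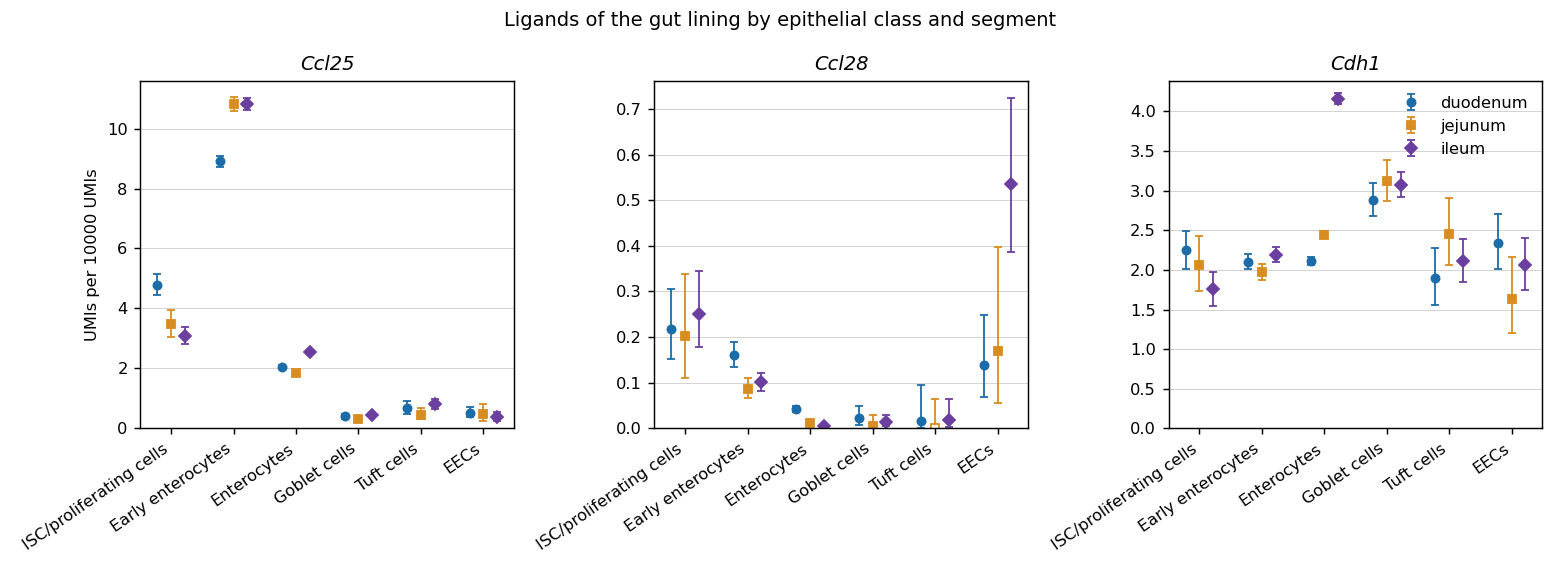
Levels of Ccl25, Ccl28 and Cdh1 (UMIs per 10000 UMIs, linear axis) in 6 epithelial classes, with a point for each library and bars for the 95% Poisson interval, and an open symbol where no UMI was found. Ccl25 is highest in early enterocytes in all 3 libraries, Ccl28 is highest in stem cells or EECs, and Cdh1 lies between 1.63 and 4.16 in all 6 classes.

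Along the villus Ccl25 fell from bottom to top. Enterocytes of each library were cut into 4 equal parts by a per-cell score of villus-tip against villus-bottom genes, which holds none of the 9 genes. From the lowest to the highest part the level was 3.18, 2.11, 1.55 and 0.840 in duodenum. It was 3.13, 2.29, 1.11 and 0.577 in jejunum, and 5.02, 2.57, 1.45 and 0.844 in ileum. The order was the same in all 3 libraries, and the top part lay below the bottom part by a log2 difference of -1.95 ± 0.14 (adjusted p = 6.93e-06). Of the 7 members tested between top and bottom parts, 2 fell, Ccl25 and Ccl28, and 1 rose, Cdh1, where 28.4% of the 10801 genes tested fell and 25.7% rose. The median mitochondrial share went from 26.6% in the lowest part to 29.0% in the highest in duodenum, from 30.0% to 26.2% in jejunum and from 15.5% to 8.65% in ileum, and its part in these differences was not tested.

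Between segments the Ccl25 level of enterocytes was 1.24-fold higher in ileum than in duodenum (1.201 to 1.277), and that of early enterocytes 1.21-fold (1.18 to 1.25). The order of segments turned when only cells with at most 20% mitochondrial UMIs were kept: the enterocyte level was then 2.65 in duodenum (533 cells), 3.14 in jejunum (540 cells) and 2.39 in ileum (3173 cells). In early enterocytes it was then 11.3, 12.4 and 11.2. No order of the segments can therefore be read for Ccl25. An unnamed cluster of 1259 cells led by Fgf15 had 3.39, 3.64 and 5.27.

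Ccl28 RNA was scarce and, unlike Ccl25, was higher in EECs than in enterocytes. Enterocytes had 0.0419, 0.0109 and 0.00447 in duodenum, jejunum and ileum, or 168, 47 and 14 UMIs. Early enterocytes had 0.161, 0.0866 and 0.10, stem and proliferating cells 0.218, 0.202 and 0.251, and EECs 0.139, 0.170 and 0.536. All 3 classes lay above the enterocytes in every library. The differences were 2.38 ± 0.50 in early enterocytes (adjusted p = 6.2e-04), 2.88 ± 0.55 in stem and proliferating cells (adjusted p = 9.2e-05) and 3.26 ± 0.60 in EECs (adjusted p = 7.2e-05). The ileal EECs had the highest Ccl28 level of the epithelial sums, 42 UMIs in 94 cells, with a share of 21.3% of cells.

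Goblet cells (0.0226, 0.00534 and 0.0138) and tuft cells (0.0169, 0 and 0.0177) overlapped the enterocytes in Ccl28. The difference was -0.34 ± 0.69 (adjusted p = 0.75) in goblet cells and -1.02 ± 1.08 (adjusted p = 0.48) in tuft cells, intervals that leave either direction possible. Along the villus score Ccl28 fell, with 73, 53, 31 and 11 UMIs from the lowest to the highest part in duodenum, 34, 10, 2 and 1 in jejunum, and 8, 3, 2 and 1 in ileum (log2 difference -2.56 ± 0.55 between top and bottom, adjusted p = 0.0024, or -2.33 and not called without the library block). In enterocytes the duodenal level was 9.37-fold the ileal level (5.43 to 16.2). With at most 20% mitochondrial UMIs it was 0.0491, 0.00902 and 0.00372, in the same order. For comparison, 19.4% of the 13234 genes with enough UMIs were at least 2-fold higher in duodenal than in ileal enterocytes. In EECs the order was the reverse, with the ileum highest, but those sums rest on 11, 5 and 42 UMIs.

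**Figure D2:**
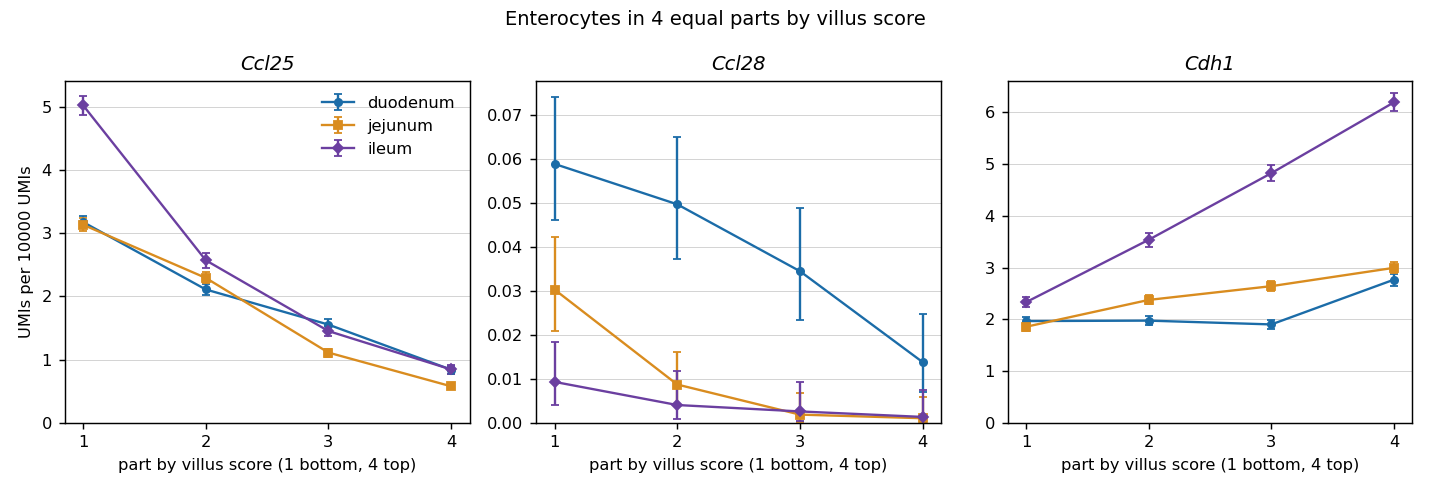
Levels of Ccl25, Ccl28 and Cdh1 (UMIs per 10000 UMIs, 95% Poisson intervals) in enterocytes cut into 4 equal parts by villus score, part 1 being the bottom and part 4 the top, with a line for each library. Ccl25 and Ccl28 fall from part 1 to part 4 in every library, and Cdh1 is highest in part 4 in every library.

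Ccr10, a receptor of CCL28, was read beside its ligand. IgA B cells, the antibody-secreting cells of the mucosa, had 1.56, 1.60 and 2.49 in duodenum, jejunum and ileum, with a UMI in 51 of 87 cells, whereas B cells held 1 UMI and T cells 0. IgA B cells exceeded B cells by 10.76 ± 0.62 (adjusted p = 5.9e-10), a fitted value whose size rests on that single UMI. Among these lymphocytes only the IgA B cells could carry Ccr10 past the filter on low counts, so the call is a description.

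Ccl20 RNA was concentrated in 7 cells. These cells, all from ileum, were set apart because they had UMIs of all 8 genes of a list for M cells and follicle-associated epithelium, the lining over lymphoid follicles. Ccl20 is not in that list. They held 1533 of the 2025 Ccl20 UMIs (75.7%), with 27 to 633 UMIs and a median of 182 per cell, which is a level of 83.2. The cells were chosen by the list genes, so the levels of these genes, 1.41 to 116, only describe that choice. Among them Gp2 was at 108 and Anxa5 at 116. Epcam, an epithelial adhesion gene, was at 39.0, and the leukocyte gene Ptprc had 0 UMIs. The 7 cells were deep, with a median of 29739 UMIs against 5536 in all kept ileal cells. With 7 cells of 1 library, they were left without a cell type name.

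A further 11.7% of the Ccl20 UMIs (237) fell in an unnamed cluster of 22 cells led by Ubd, 21 of them ileal, where 18 cells had at least 1 UMI and the level was 17.3. Gp2 was at 1.32 in that cluster, Anxa5 at 4.03 and Epcam at 42.7. In ileal enterocytes Gp2 and Anxa5 were at 0.00479 and 0.0546. Each gene of the M cell and follicle-associated epithelium list was higher in the Ubd-led cluster than in those enterocytes. The cluster was left unnamed because that list stood higher in it than the enterocyte markers. The other 16657 cells held 255 UMIs in 183 cells, with at most 21 in a cell. Among them the level in enterocytes was 0.0167, 0.00209 and 0.0102 in duodenum, jejunum and ileum, and the highest in goblet cells was 0.0603, in duodenum. Along the villus score the difference was -1.45 ± 0.73 (adjusted p = 0.11). In the 7 cells Ccl25 was at 10.1, between the levels of the early enterocytes of duodenum and jejunum, and Cdh1 was at 1.03, under the 6.22 of the Ubd-led cluster.

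Cdh1, the ligand of the αE integrin, was found throughout the epithelium. Its level in enterocytes was 2.11 in duodenum, 2.44 in jejunum and 4.16 in ileum, and goblet cells had 2.88, 3.12 and 3.07, with a difference of 0.03 ± 0.26 (adjusted p = 0.96). It was lower, relative to the typical gene, in early enterocytes (-0.80 ± 0.26, adjusted p = 0.016), tuft cells (-1.03 ± 0.27, adjusted p = 0.0025), EECs (-1.35 ± 0.28, adjusted p = 1.5e-04) and stem and proliferating cells (-1.32 ± 0.27, adjusted p = 1.2e-04). Scaled by library totals these 4 differences were -0.45, -0.40, -0.50 and -0.49 and none was called. In early enterocytes the call was also lost without the jejunum (-0.83) and without the ileum (-0.63). The levels themselves lay close to those of enterocytes in duodenum, for example 2.10 in early enterocytes and 2.25 in stem cells against 2.11. The gap was widest in ileum, where all 4 classes lay between 1.75 and 2.19.

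Cdh1 rose towards the villus top, the reverse of Ccl25. From the lowest to the highest part it was 1.97, 1.97, 1.90 and 2.77 in duodenum, 1.86, 2.37, 2.64 and 2.99 in jejunum, and 2.33, 3.54, 4.82 and 6.19 in ileum, a difference of 1.21 ± 0.20 between top and bottom (adjusted p = 5.0e-04), or 1.34 and not called without the library block. In duodenum the 3 lower parts had overlapping intervals, and in ileum each step was larger than its counting error. Enterocytes of the ileum had 1.97-fold the Cdh1 of the duodenum (1.92 to 2.02), where 17.6% of genes were at least 2-fold higher in ileum. With at most 20% mitochondrial UMIs the levels were 2.13, 2.77 and 4.36.

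Counted over the 8 members tested against enterocytes, early enterocytes had 2 higher (Ccl25 and Ccl28, background 19% of 12588 genes) and 1 lower (Cdh1, background 21.4%). Goblet cells had 0 higher and 1 lower (Ccl25), where the backgrounds were 17.6% and 21.4%. Tuft cells had 0 higher and 2 lower (Ccl25 and Cdh1), where they were 22.3% and 24.5%. EECs had 4 higher (Ccl28, Itgb7, Itgae and Ccr9) and 2 lower (Ccl25 and Cdh1), against 27.7% and 26.8%. Stem and proliferating cells had 4 higher (Ccl28, Itgb7, Itgae and Ccr9) and 1 lower (Cdh1), against 31.2% and 31.6%. The filter kept the receptors through the immune classes in which they are abundant, so these counts are a description. Ligands, adhesion genes and the TGF-β and retinoic acid genes that instruct homing were read from lists of other genes of the same routes. Of 14 epithelial adhesion genes, 9 were lower in early enterocytes than in enterocytes and 0 higher (Cdhr2 -2.46, Cadm1 -2.36, Cdhr5 -1.80 and Ceacam1 -1.46, median -1.17 against -0.14 for all genes). Between the top and bottom parts of the villus score, 25.7% of all genes were higher and 28.4% lower. Of the 12 adhesion genes tested there, 10 were higher and 0 lower (Cadm1 2.44, F11r 1.19, Ctnna1 1.17 and Epcam 1.10, median 0.83 against -0.04), the direction of Cdh1. Of 16 other chemokine ligands tested, 4 were lower in early enterocytes and 0 higher (Cxcl9 -2.94, Cxcl2 -2.73, Cxcl16 -2.58 and Ccl24 -1.81), a share near the 21.4% of all genes. Of 9 tested between the top and bottom parts, Cxcl16, the ligand of the tissue-residency receptor CXCR6, was higher at the top by 1.71 and Ccl5 by 0.68. Of 15 TGF-β and retinoic acid genes, 1 was higher (Rdh7 1.28) and 6 lower in early enterocytes, and of 14 along the villus score 3 were higher and 3 lower (Rdh7 -2.12, Aldh1a1 -1.71, Smad7 1.33 and Cdx1 -0.65). Of 14 integrin genes, 1 was higher (Itga2 3.04) and 3 lower (Itgb6 -2.72, Itgav -2.45 and Itga6 -1.44) in early enterocytes, and of 7 along the villus score 4 were higher and 2 lower. Of 18 chemokine and homing receptors, 0 passed the test in early enterocytes.

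Itgb7 was measured in EECs as well as in lymphocytes. Its level was 0.190, 0.136 and 0.268, and 24 of 171 cells had at least 1 UMI, a difference of 4.47 ± 0.69 from enterocytes (adjusted p = 3.8e-06). For Itgae 14 UMIs lay in 9 cells, and for Ccr9 12 UMIs lay in 3 cells, all ileal, so that nothing is read from their calls. All these genes were kept by the filter through the immune classes. T cell RNA was present in EECs too, and its part in the Itgb7 value was not tested. Itgb7 in EECs was at 8.09% of its T cell level. The summed level of 12 T cell markers was at 1.38%, Itgae at 1.84%, Ccr9 at 2.19% and Ptprc at 1.99%. By library, the T cell markers ranged from 0.0765% in jejunum to 2.54% in ileum, and Itgb7 from 5.33% to 10.0% in the same libraries. Of the 24 EECs with Itgb7, 3 had UMIs of at least 3 of the 12 T cell markers, 2 had Itgae, 2 had Ccr9 and 4 had Itga4. Itga4, the partner chain, was at 0.443, 0.613 and 0.243 in EECs (6.22 ± 0.55, adjusted p = 5.8e-10), or 36.5% of its T cell level. Of the 147 EECs without Itgb7, 28 had Itga4.

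In stem and proliferating cells Itgae (2.84 ± 0.74, adjusted p = 0.0016), Itgb7 (3.27 ± 0.66, adjusted p = 9.9e-05) and Ccr9 (2.45 ± 0.61, adjusted p = 0.0011) were called, but 30 of 31 Itgae UMIs, 42 of 42 Itgb7 UMIs and 25 of 30 Ccr9 UMIs lay in its Top2a-led cluster of 95 cells. The 12 T cell markers were there at 7.17% of their T cell level and at 0.0800% in the Olfm4-led cluster. Without the Top2a-led cluster the differences were -1.05, -4.79 and 0.89 and none was called. Without the ileum Itgae (2.10) and Ccr9 (1.12) were not called either.

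Ccr9, the receptor of CCL25, was a receptor of T cells and of a dendritic cluster. T cells had 1.48 (28 UMIs in 35 cells), 3.40 (206 UMIs in 110 cells) and 2.93 (1564 UMIs in 1089 cells) in duodenum, jejunum and ileum. B cells had 0, 0.195 and 0.112 and IgA B cells 0.428, 0.424 and 0.282, so that the 3 classes did not overlap. T cells exceeded B cells by 5.01 ± 0.62 (adjusted p = 1.3e-06), IgA B cells exceeded B cells by 4.03 ± 0.67 (adjusted p = 7.7e-05), and T cells exceeded enterocytes (0.00275, 0.00672 and 0.0128) by 7.61 ± 0.51 (adjusted p = 2.4e-12). The value of 4.03 is relative to the typical gene by TMM and rests on 67 UMIs in IgA B cells and 37 in B cells. In jejunum and ileum the levels of these classes lay closer together than that value. A UMI was found in 60.7% of T cells, 39.1% of the deeper IgA B cells and 3.75% of B cells (median 4260, 21479 and 3383 UMIs). The level of T cells was 1.98-fold higher in ileum than in duodenum (1.36 to 2.87) and 2.29-fold higher in jejunum (1.54 to 3.40), where 22.5% and 14.2% of genes with enough UMIs were at least 2-fold higher, and the duodenal T cells also carried the highest enterocyte RNA.

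The highest Ccr9 level of a cluster was in 26 dendritic cells led by Siglech, a gene of plasmacytoid dendritic cells. It was 16.6, 22.7 and 11.6 in the 3, 6 and 17 cells of duodenum, jejunum and ileum, with a UMI in 25 of the 26 cells. The 25 dendritic cells led by Xcr1, a gene of cross-presenting dendritic cells, had 0.413, an unnamed cluster of 87 cells led by Il1b 1.10, and macrophages 0.113. Intervals of the Siglech-led cluster (12.9 to 16.1) and the Xcr1-led cluster (0.262 to 0.619) did not overlap, and no test was made, since the clusters hold 1 to 6 cells in 2 of the libraries.

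**Figure D3:**
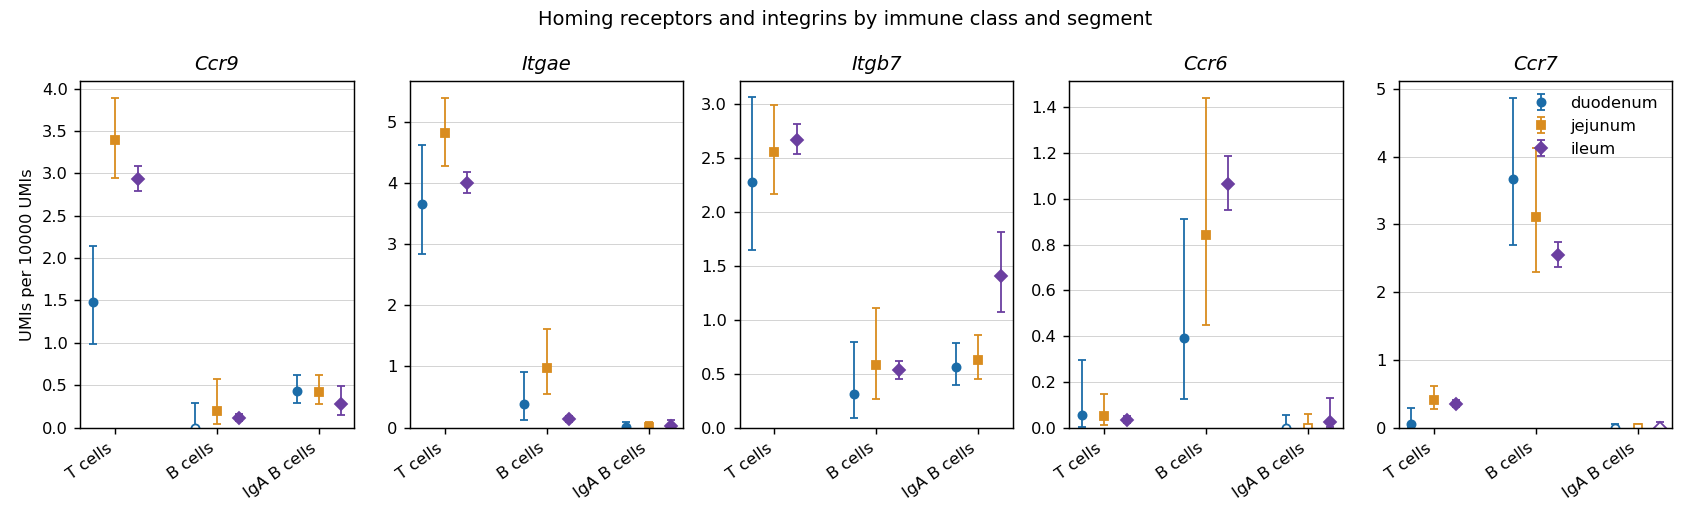
Levels of Ccr9, Itgae, Itgb7, Ccr6 and Ccr7 (UMIs per 10000 UMIs, linear axis) in T cells, B cells and IgA B cells, with a point for each library, bars for the 95% Poisson interval and an open symbol where no UMI was found. Ccr9, Itgae and Itgb7 are highest in T cells, and Ccr6 and Ccr7 in B cells, in every library.

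Itgae followed Ccr9 in T cells but not in IgA B cells. T cells had 3.65, 4.81 and 4.01, with a UMI in 71.8% of cells, B cells 0.390, 0.974 and 0.135, with a UMI in 3.43%, and IgA B cells 3 UMIs in 87 cells. T cells exceeded B cells by 4.07 ± 0.68 (adjusted p = 9.0e-05) and enterocytes by 8.63 ± 0.64 (adjusted p = 1.1e-11). The B cell values of duodenum and jejunum, 5 and 15 UMIs, came from 2.63% of 38 and 7.41% of 27 cells. The difference between IgA B cells and B cells was -2.25 ± 1.35 (adjusted p = 0.30). Itgae was also at 2.98 in the Xcr1-led dendritic cluster (21 of 25 cells) and 2.55 in the Il1b-led cluster (68 of 87 cells), against 0.182 in the Siglech-led cluster. Ccr9 and Itgae thus marked different dendritic clusters.

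Itgb7, the chain shared by both gut integrins, was measured in all 3 lymphocyte classes. T cells had 2.28, 2.56 and 2.67, IgA B cells 0.566, 0.629 and 1.41, and B cells 0.312, 0.584 and 0.532. T cells exceeded B cells by 2.81 ± 0.59 (adjusted p = 0.0012), or 2.34 and not called without the library block, and enterocytes by 8.16 ± 0.59 (adjusted p = 8.4e-12). IgA B cells exceeded B cells by 2.72 ± 0.61 (adjusted p = 0.0020), although the summed levels were 0.799 and 0.526, and with library totals the difference was 1.18 and was not called. Dendritic cells had 1.52 and macrophages 0.227. Between segments no Itgb7 difference of T cells was detectable at this depth, with ratios between 1.05 and 1.17 whose intervals included 1.

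Against B cells, T cells had 4 members higher (Ccr9, Itgae, Itgb7 and Cdh1) and 2 lower (Ccr6 and Ccr7), where 6.51% and 6.5% of 12588 genes were called higher and lower. Cdh1 was 1.11 ± 0.34 higher (adjusted p = 0.027), at 1.06, 0.775 and 0.926 in T cells and 0.312, 0.260 and 0.506 in B cells, and enterocyte markers were higher in T than in B cells of duodenum and ileum but lower in jejunum. The Cdh1 call was lost without the duodenum (0.91), the jejunum (1.09) or the ileum (1.65). IgA B cells had 2 members higher (Ccr9 and Itgb7) and 2 lower (Ccr6 and Ccr7) than B cells, where 8.39% and 7.55% were called. Against enterocytes, T cells had 5 higher (Itgae, Itgb7, Ccr9, Ccr7 and Ccr6) and 3 lower (Ccl25 -2.45, Cdh1 -2.59 and Ccl28 -3.06), where 30.4% and 32.5% were called. The filter kept those 5 genes through the immune classes, so their count and their p-values against enterocytes only describe that choice.

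**Figure D4:**
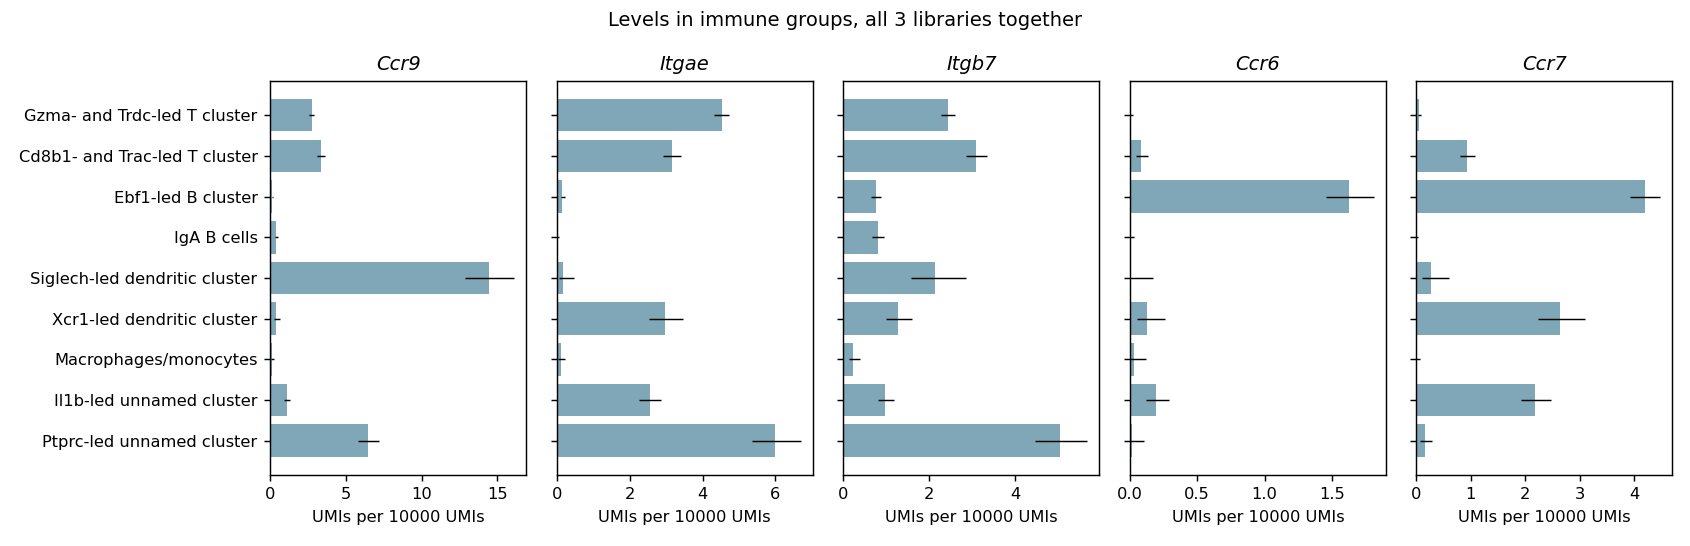
Levels of Ccr9, Itgae, Itgb7, Ccr6 and Ccr7 (UMIs per 10000 UMIs, bars from 0, with 95% Poisson intervals) in 9 immune groups over all libraries, named by class or by leading genes. Ccr9 is highest in the Siglech-led dendritic cluster (14.4), and Ccr7 in the Ebf1-led B cluster (4.19).

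Ccr6 and Ccr7 were higher in B cells than in T cells. Ccr6, the receptor of CCL20, was at 0.390, 0.844 and 1.06 in B cells of duodenum, jejunum and ileum and at 0.0530, 0.0495 and 0.0319 in T cells. The T cell levels of Ccr6 rest on 21 UMIs in 13 cells over all libraries, and enterocytes held 8 UMIs. The difference was -4.80 ± 0.74 for T against B cells (adjusted p = 4.1e-05), or -3.69 and not called without the ileum, and T cells exceeded enterocytes by 4.02 ± 0.80 (adjusted p = 9.4e-05). Ccr7 was at 3.66, 3.12 and 2.55 in B cells and 0.0530, 0.412 and 0.347 in T cells (-3.41 ± 0.55, adjusted p = 1.2e-04), and T cells exceeded enterocytes by 6.20 ± 0.64 (adjusted p = 2.3e-08). In duodenum the Ccr7 level of T cells came from 1 cell. The Ccr7 difference between T and B cells was -4.10 and not called by DESeq2. A UMI of Ccr6 was found in 29.9% of B cells and 1.05% of T cells, and of Ccr7 in 50.1% and 5.11%.

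The 525 cells of the B cell cluster led by Ebf1, a B cell transcription factor, had Ccr6 at 1.63 and Ccr7 at 4.19. In the IgA B cells Ccr6 had 1 UMI, 176-fold lower than in B cells (31.4 to 6983), and the test gave -5.32 ± 1.06 (adjusted p = 7.2e-04). Ccr7 had 0 UMIs in the 87 IgA B cells, at least 150-fold lower than in B cells when set at 3 counts over the group (adjusted p = 1.3e-05). Both folds compare library totals, by which the median gene differed by -1.61 on the log2 scale between IgA B cells and B cells (-0.11 by TMM), so they are larger than a difference relative to the typical gene. In segments, Ccr7 of B cells was 1.44-fold higher in duodenum than in ileum (1.07 to 1.93) and Ccr6 2.73-fold higher in ileum (1.13 to 6.60), where 11.8% of genes were at least 2-fold higher in duodenum and 22.7% in ileum.

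Outside B and T cells, Ccr7 UMIs came from few cells. In the Xcr1-led dendritic cluster 147 UMIs came from 4 of 25 cells, and in the Il1b-led cluster 249 UMIs came from 12 of 87 cells, levels of 2.64 and 2.18. The 58 macrophages had 0 UMIs. Ccr6 was at 0.193 in the Il1b-led cluster.

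The T cells themselves were divided by the UMIs of their receptor genes into γδ cells (Trdc without Trac, 236 cells), CD8αβ cells (Trac and Cd8b1, 268 cells), αβ cells with Cd8a alone (117 cells) and αβ cells with neither Cd8 gene (176 cells). All αβ cells had Trac without Trdc. Cells with a Cd4 UMI were left out of the CD8αβ and Cd8a-only subsets but not of the αβ cells without Cd8. The rest of the 1234 T cells fell in no subset. Comparisons rest on jejunum and ileum, since the duodenal sums held under 10 cells, and the smallest sum, the jejunal CD8αβ cells, held 10 cells. Itgae was at 5.56 and 4.47 in γδ cells of jejunum and ileum, 5.76 and 4.25 in CD8αβ cells and 7.43 and 4.21 in Cd8a-only cells, but at 0.863 and 0.980 in αβ cells without Cd8. The first 3 subsets overlapped and the last lay under all of them. Cells without Cd8 were lower than CD8αβ cells by 2.19 on the log2 scale (-2.19 ± 0.30, adjusted p = 1.2e-04), and γδ cells differed from them by 0.00 ± 0.26 (adjusted p = 1.0).

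Ccr9 was at 5.46 and 3.53 in γδ cells, 6.48 and 3.70 in CD8αβ cells, 1.26 and 1.82 in Cd8a-only cells and 2.16 and 1.28 in cells without Cd8. Unlike Itgae it was low in both of the latter subsets, whose intervals lay under those of the former in ileum. The difference was -1.49 ± 0.32 between cells without Cd8 and CD8αβ cells (adjusted p = 0.013) and -0.13 ± 0.29 between γδ and CD8αβ cells (adjusted p = 1.0). For Itgb7 these differences were -0.88 ± 0.29 (adjusted p = 0.20) and -0.28 ± 0.28 (adjusted p = 1.0).

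Ccr7 had the reverse pattern. Cells without Cd8 had 2.88 and 1.48 in jejunum and ileum, CD8αβ cells 0 and 0.278, γδ cells 0 and 0.0201, and Cd8a-only cells 0 and 0. The difference from CD8αβ cells was 2.66 ± 0.44 in cells without Cd8 (adjusted p = 0.0013) and -3.76 ± 0.84 in γδ cells (adjusted p = 0.034), the latter from 2 against 34 UMIs over all libraries, a 15.0-fold lower level (3.83 to 129). By DESeq2 neither Ccr7 difference was called (3.67 and -3.24), nor was that of Ccr9 (-1.48), and without the library block the γδ difference of Ccr7 (-3.73) and the Ccr9 difference (-1.51) were not called. Of the 6 members tested between cells without Cd8 and CD8αβ cells, 1 was higher (Ccr7) and 2 lower (Ccr9 and Itgae), where 1.12% and 0.692% of 5346 genes were called higher and lower. Between γδ and CD8αβ cells 0 were higher and 1 lower (Ccr7), where 0.486% and 0.318% were called.

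**Figure D5:**
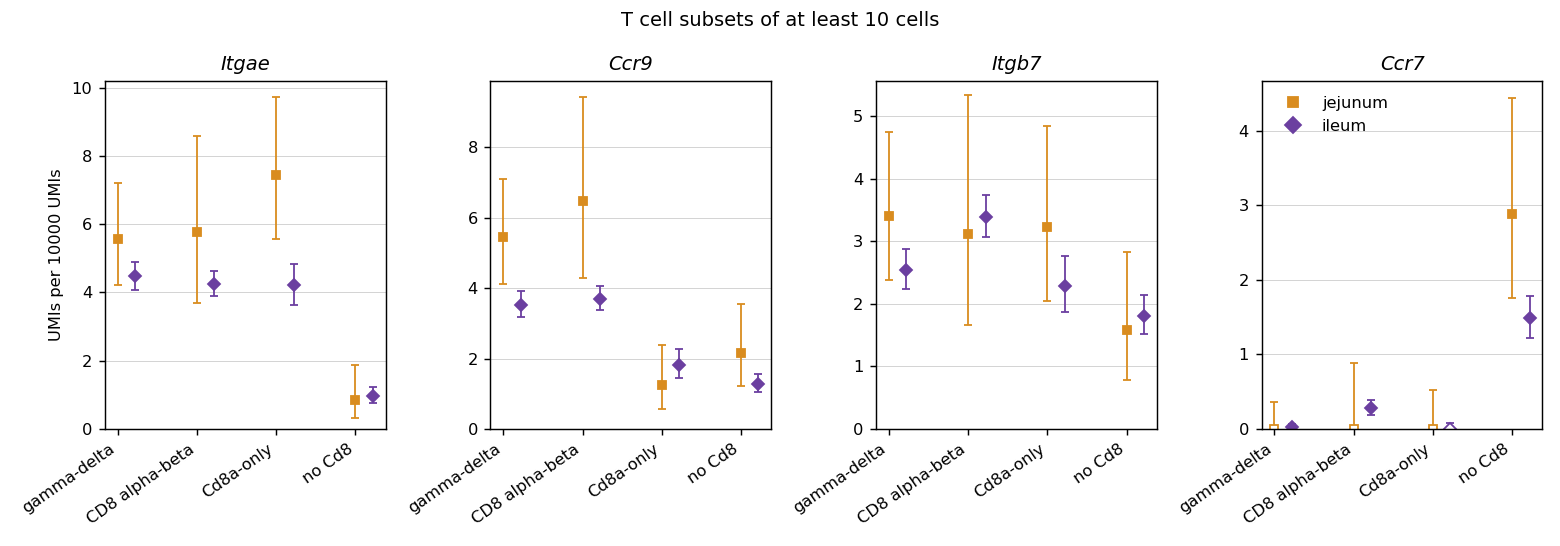
Levels of Itgae, Ccr9, Itgb7 and Ccr7 (UMIs per 10000 UMIs, 95% Poisson intervals) in 4 T cell subsets of jejunum and ileum, with a point for each sum of at least 10 cells. Itgae and Ccr9 are lower, and Ccr7 is higher, in the αβ cells without Cd8 than in the CD8αβ cells of both segments.

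Cell by cell, T cells with a Ccr7 UMI seldom had the residency integrin. Itgae was detected in 13 of the 63 T cells with Ccr7 (20.6%, 11.5 to 32.7) and in 873 of the 1171 without it (74.6%, 72.0 to 77.0), and Ccr9 in 17 (27.0%) and 62.5%. Itgb7 was detected in 37 (58.7%) and 66.8%. The cells with Ccr7 were the deeper ones (median 5095 against 4243 UMIs). In jejunum 0 of 6 and in ileum 13 of 56 T cells with Ccr7 had Itgae, and 56 of the 63 cells came from ileum. Ccr9 and Itgae, in contrast, were found together: Itgae was detected in 621 of 749 T cells with Ccr9 (82.9%, 80.0 to 85.5) and in 265 of 485 without it (54.6%, 50.1 to 59.1), and in each segment the former share was the higher. Itgb7 was detected in 71.9% of T cells with Itgae and 52.3% of those without it. These cells share libraries, so the shares are a description.

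Other genes of the same routes moved in T cells as follows. Against B cells, where 6.51% of all genes were higher and 6.5% lower, 4 of 16 chemokine ligands were higher and 0 lower (Ccl4 6.02, Ccl3 5.22, Ccl5 4.03 and Xcl1 3.84), ligands that cytotoxic lymphocytes release. Of 18 chemokine and homing receptors, 4 were higher and 8 lower (Ccr2 6.32 and Cxcr6 5.94, Ackr4 -8.38 and Ackr2 -6.87). Of 14 integrin genes 4 were higher and 0 lower (Itga1 4.01, a collagen-binding chain of tissue-resident cells, Itgax 3.85, Itga2 2.58 and Itgb2 1.70), of 14 adhesion genes 2 were higher and 0 lower (Crtam 6.19 and Cd160 6.09), and of 15 TGF-β and retinoic acid genes 1 was higher and 0 lower, Runx3 (3.22), a transcription factor of CD8 T cells. The share of the last list is that of all genes. Medians over the lists were 1.24, -1.26, 1.10, 0.47 and 0.25, against 0.09 for all genes. In αβ cells without Cd8, 1.12% of all genes were higher than in CD8αβ cells and 0.692% lower. There, 3 of 7 homing receptors were higher and 0 lower (Cxcr4 3.74, Gpr183 2.57 and S1pr1 2.20), the last being the receptor by which T cells leave tissue. In the other 4 lists 1 gene was higher (Cxcl10 2.22) and 5 lower (Ccl4 -4.04, Xcl1 -1.30, Itga1 -1.75, Cd160 -1.76 and Runx3 -1.24). Between γδ and CD8αβ cells 0 genes of the 5 lists passed the test, where 0.486% and 0.318% of all genes were called higher and lower.

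In IgA B cells, where 8.39% of all genes were higher and 7.55% lower, 1 of 18 homing receptors was higher than in B cells, Ccr10, and 7 were lower, among them Cxcr5 (-11.24), the receptor of B cell follicles, and Ccr1 (-8.88). Of the other lists, 1 of 16 chemokine ligands was higher (Cxcl10 4.16) and 1 lower (Ccl5 -4.68), 1 of 14 integrin genes was higher (Itgal 2.77), 1 of 14 adhesion genes was higher (Epcam 1.52), and 4 of 15 TGF-β and retinoic acid genes were lower (Tgfb1 -2.00, Tgfbr2 -1.66, Smad2 -1.54 and Smad7 -1.02). A single gene higher or lower in a list is a share near or under that of all genes. Ccr7 and Ccr6 were thus lower in these cells, as was Cxcr5, and Ccr9 and Itgb7 were higher, as was Ccr10.

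Genes with the most similar pattern over the 31 sums of library and class were read by Pearson's r of log2 levels, as a description over sums that share libraries. They were Slc39a5, Otc (both 0.93) and Chchd7 (0.92) for Ccl25, Igsf9b (0.91), Gstz1 (0.90) and Prodh (0.87) for Ccl28, and Tpm1, Shroom3 (both 0.95) and Tjp1 (0.94) for Cdh1. For the receptors they were Itm2a (0.92), Selplg (0.91) and Cd8b1 (0.90) for Ccr9, Gcsam, Bfsp2 (both 0.96) and Trim30b (0.95) for Ccr6, and Btla (0.95) and Lrrk2 (0.93) for Ccr7. For the integrin chains they were Cd8a (0.99), Cd7 (0.98) and Klrd1 (0.97) for Itgae and Selplg (0.93), Chst12 and Abhd8 (both 0.92) for Itgb7.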

How the data were processed

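The 9 genes and the lists of other genes were chosen with earlier results of these data known. Single-cell RNA-seq (10x 3′ v3, NovaSeq) had been run on 3 libraries, and per the submitters' processing notes reads were processed with Cell Ranger 3.0.2 on GRCm38 (mm10). The authors deposited raw UMI counts per gene and barcode, not normalized, before the study's cell filters. No map from cells to the study's classes was used here, and the names of the rebuilt classes can differ from the study's.

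Cells were kept if their UMIs numbered 800 to 50000, their genes 200 to 6000 and their mitochondrial share did not exceed 40%. Seurat 5.3.0 (R 4.3.3) integrated the libraries by anchors over 2000 variable genes without the 9 members, and clustered on 30 principal components at resolution 0.8. Clusters were named by marker lists if at least 3 markers were detected and their 10 leading genes did not favour another list. The cells with UMIs of all 8 genes of the M cell and follicle-associated epithelium list were set apart after seeing the data. Scrublet (scanpy 1.11.5) called 146 doublets, all in ileum (1.81%), and 0 in the other libraries. These cells were kept, and left out in an alternative, so doublets of duodenum and jejunum were not removed.

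Counts were summed per library and class, keeping sums of at least 10 cells, and compared by edgeR 4.0.16 (filterByExpr, TMM, glmQLFit, glmQLFTest, library as block, all 31 sums in 1 fit), with DESeq2 1.42.0 as an alternative. The test was tried on simulated counts. With the library as a block, p-values rest on how far differences between groups vary over the libraries. The libraries are different segments with 1 library each, so that spread may hold differences between segments as well as technical ones. Levels were compared between genes without correction for length, since 3′ counts give 1 UMI per transcript. Named genes were the 9 members, at most 4 genes per list and comparison with the largest called difference, and the 3 most similar genes per member. Some genes that this rule names are not reported here. Ccr10, Itga4, Gp2, Anxa5, Epcam and Ptprc were named beyond that rule after their values were seen. Python 3.11.15 (numpy 2.4.6, scipy 1.17.1, pandas 2.3.3, matplotlib 3.10.9) was used for levels, intervals and figures. Alternatives covered scaling, tool, filter, library block, leaving out each library, cells per sum, mitochondrial share, doublets, enterocyte RNA, resolution, integration and, added after seeing the data, 3 changes of class membership.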

Additional observations from a re-analysis of the deposited data

Results flagged for a closer look

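These levels were measured in cell groups outside the class comparisons and lay above the range of the classes beside them. Ccl20 was at 83.2 UMIs per 10000 UMIs in the 7 ileal cells with all genes of the M cell and follicle-associated epithelium list, and at 17.3 in the Ubd-led cluster of 22 cells, against at most 0.0603 in goblet cells and 0.0167 in enterocytes of any library. Ccr9 was at 14.4 in the Siglech-led dendritic cluster of 26 cells, against 2.93 in T cells. In the unnamed cluster of 400 cells with Ptprc among its leading genes, Ccr9 was at 6.44 and Itgae at 6.00, above the 2.93 and 4.08 of the named T cells. That cluster had a median of 1200.5 UMIs per cell and 17.5% mitochondrial UMIs, against 4260 and 4.94% in T cells, and adding it to the T cells moved no difference between T and B cells across the threshold for Ccr9, Itgae, Itgb7, Ccr6 and Ccr7. The causes of these differences in level were not tested.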

How the results depend on the processing

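Of 598 values of members under the alternatives, 550 kept their direction and side of the threshold, 30 lost the call, 1 gained it and 17 changed sign. Of 42 member results, 20 kept both under every alternative run for them, among them Ccl25 and Ccl28 in early enterocytes and EECs. Depth limits Ccl28, Ccl20 and the duodenal immune classes, whose sums hold few UMIs, and a single library per segment leaves no spread between animals.

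With library totals in place of TMM, the median over all genes moved from -0.09 to 0.76 for T cells against enterocytes, -0.04 to 0.79 for EECs, -0.06 to 0.74 for stem and proliferating cells, -0.12 to 0.47 for tuft cells, -0.14 to 0.18 for early enterocytes, -0.11 to -1.61 for IgA B cells against B cells and -0.04 to -0.40 between villus top and bottom. The genes called higher and lower moved from 3821 and 4089 to 5893 and 2464, from 3483 and 3374 to 5796 and 1634, from 3932 and 3977 to 5798 and 2234, from 2812 and 3078 to 4527 and 1746, from 2395 and 2700 to 3413 and 1543, from 1056 and 950 to 295 and 6585 (6880 in all against 2006), and from 2776 and 3064 to 1431 and 4844. Under that scaling Cdh1 was -0.45, -0.40, -0.50 and -0.49 in early, tuft, enteroendocrine and stem cells, Itgb7 of IgA B cells 1.18 (calls lost), and Ccl25 of stem cells 0.81.

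Leaving out 1 library gave 467 to 1361 called genes for T against B cells (1637 with all, 467 without the ileum and 994 without the jejunum), 1040 to 1292 for IgA B cells, 2896 to 4656 for early enterocytes and 3193 to 4305 for goblet cells, which have fewer sums to test. For members it gave -4.99 to -3.69 for Ccr6 and 0.91 to 1.65 for Cdh1 in T against B cells, -1.002 to -0.63 for Cdh1 in early enterocytes, -0.14 to 0.22 for Cdh1 in goblet cells, and in stem and proliferating cells -0.47 to 0.15 for Ccl25, 2.10 to 2.81 for Itgae and 1.12 to 2.72 for Ccr9. Cdh1 of goblet cells was -0.14 without the duodenum and -0.03 without the jejunum, and Ccl25 of stem cells -0.47 without the duodenum, 0.02 without the jejunum and 0.15 without the ileum. None of these was called.

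Labels give every library the number 1, so no pairing of animals could be used. Without the library block, villus top against bottom gave 446 called genes against 5840, with Ccl28 at -2.33 and Cdh1 at 1.34 not called, and cells without Cd8 gave 64 against 97. Calls were also lost for Itgb7 in T (2.34) and IgA B cells (2.33) against B cells, for Ccr7 in γδ cells (-3.73) and for Ccr9 in cells without Cd8 (-1.51), and Ccl25 of stem cells was 0.0046.

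With DESeq2, calls were lost for Ccr7 in T against B cells (-4.10), γδ cells (-3.24) and cells without Cd8 (3.67) and for Ccr9 in cells without Cd8 (-1.48), Ccl25 of stem cells was 0.23 and Itgae of γδ cells -0.010. The γδ comparison (43 genes) and that of cells without Cd8 (97) gave 16 and 33 genes with DESeq2, 79 and 185 with all genes of at least 1 UMI, 12 and 24 with sums of at least 3 cells, 89 and 170 with at most 20% mitochondrial UMIs, and 79 and 179 without the 10% of cells with most enterocyte RNA. Itgae of γδ cells was -0.059 without the doublets and -0.031 without those 10%, where Itgb7 of cells without Cd8 was called at -0.91. With sums of at least 3 cells, Ccr9 was -1.35 in cells without Cd8 (call lost) and 0.00074 in γδ cells. Ccl25 of stem cells was 0.030 with all genes of at least 1 UMI. Cdh1 in T against B cells lost its call with sums of at least 3 cells (1.10), at most 20% mitochondrial UMIs (1.16), resolution 1.2 (1.08) and no integration (1.09), and without integration Cdh1 of goblet cells was -0.060 and Ccl25 of stem cells 0.064. At most 20% mitochondrial UMIs moved the enterocyte level of Ccl25 to 2.65, 3.14 and 2.39 in duodenum, jejunum and ileum and that of Cdh1 to 2.77 in jejunum and 4.36 in ileum.

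Alternatives added after seeing the data were B cells of the Ebf1-led cluster alone, where Cdh1 of T against B cells was 0.72 (call lost), and stem and proliferating cells without the Top2a-led cluster, where Itgb7 was -4.79, Itgae -1.05, Ccr9 0.89 (none called) and Ccl25 0.012. The T subset comparisons without the jejunum, without the ileum, with sums of at least 20 cells and with at least 2 UMIs of Trac or Trdc could not be fitted, since fewer than 2 libraries were left. For the other changes the cause was not tested.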
